A study of Homo sapiens with 8 samples.

Results

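The genes of MHC class I antigen presentation described here were followed through 8 RNA-seq libraries of MM1.S cells: the heavy chain genes HLA-B, HLA-C, HLA-E and HLA-F, the light chain gene B2M, the peptide transporter genes TAP1 and TAP2, the tapasin gene TAPBP, and NLRC5, which encodes the transactivator of class I genes. They were chosen by name, with earlier results of these data known. Of these names, 9 of 9 were found among the 16295 genes listed and passed the filter that left 14164 genes to test. MM1.S is an established human plasma cell line from multiple myeloma. The cells had received DMSO (the solvent), MS177, MS177N1 or C24 for 24 h, each compound at 0.5 uM, and every group has 2 libraries. As background, MS177 was built from the EZH2 inhibitor C24 so as to recruit CRBN, the substrate receptor of a ubiquitin ligase, and so to degrade EZH2, a histone methyltransferase, and MS177N1 is a related compound used as a control that leaves EZH2 undegraded. Nothing in the labels states that paired libraries of a group come from different cultures. A p-value here therefore reflects the spread between libraries alone, and that spread may be technical.

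MHC class I molecules show peptides from inside the cell to CD8 T cells. The proteasome cuts proteins into peptides, the transporter TAP1-TAP2 carries them into the endoplasmic reticulum, tapasin and chaperones help to load them, and the heavy chain leaves for the cell surface together with beta-2-microglobulin. HLA-B and HLA-C present peptides to T cells, HLA-E is recognised mainly by inhibitory receptors of natural killer (NK) cells, and HLA-F is a nonclassical chain that can also bind NK cell receptors. Promoters of class I genes carry an S-X-Y module, which the RFX complex, CREB/ATF factors and NF-Y occupy and through which NLRC5 acts, next to sites for NF-kB and for interferon regulatory factors. EZH2 is known as a repressor of class I genes in several tumour types.

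The upstream sequences below are those of the 4 genes that changed with MS177. Each is the 250 bases before the transcription start in RefSeq (build GRCh38.p14), 5′ to 3′ on the gene's strand, and capitals mark matches on either strand to the motifs searched. These were CCAAT (the Y box), TGACG (the core of the X2 box), GAAA followed by any 2 bases and GAAA (the core of an interferon-stimulated response element), TTCNNNGAA (a STAT site) and the NF-kB consensus motif; overlapping matches run together.
HLA-F (chr6:29723184-29723433, plus strand): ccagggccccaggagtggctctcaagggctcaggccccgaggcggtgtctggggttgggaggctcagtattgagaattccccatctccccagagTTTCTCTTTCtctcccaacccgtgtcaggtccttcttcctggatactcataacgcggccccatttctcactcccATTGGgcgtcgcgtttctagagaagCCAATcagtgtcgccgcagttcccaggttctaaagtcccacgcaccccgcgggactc
HLA-B (chr6:31357180-31357429, minus strand): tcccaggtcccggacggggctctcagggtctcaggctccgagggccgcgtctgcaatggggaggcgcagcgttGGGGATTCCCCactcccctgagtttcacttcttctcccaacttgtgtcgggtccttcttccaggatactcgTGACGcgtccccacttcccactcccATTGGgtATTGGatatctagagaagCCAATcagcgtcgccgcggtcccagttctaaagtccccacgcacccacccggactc
TAPBP (chr6:33314079-33314328, minus strand): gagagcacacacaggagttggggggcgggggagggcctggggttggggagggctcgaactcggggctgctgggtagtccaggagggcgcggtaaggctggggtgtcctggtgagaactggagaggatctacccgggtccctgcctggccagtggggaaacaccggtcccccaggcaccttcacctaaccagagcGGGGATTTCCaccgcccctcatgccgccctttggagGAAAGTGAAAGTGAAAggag
TAP2 (chr6:32838740-32838989, minus strand): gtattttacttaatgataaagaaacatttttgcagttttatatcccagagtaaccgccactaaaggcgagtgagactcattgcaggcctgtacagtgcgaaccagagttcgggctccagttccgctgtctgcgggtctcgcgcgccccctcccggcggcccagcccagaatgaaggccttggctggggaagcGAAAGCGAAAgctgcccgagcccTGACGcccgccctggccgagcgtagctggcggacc
A window was found in the table for 7 of the 9 genes, all but HLA-E and NLRC5. CCAAT or its reverse was present in 5 of these 7 (32.0% of all 35116 promoters in the table), TGACG in 4 (21.2%), the interferon element core in 5 (3.02%) and the NF-kB consensus in 5 (5.21%). No window of the 7 held TTCNNNGAA (6.57% of all). HLA-F and HLA-B hold a reversed CCAAT at nearly the same place (82 to 78 and 81 to 77 bases before the start) and a forward one at 57 to 53 and 56 to 52. Within this window HLA-F has the interferon element core (156 to 147 bases before the start) and no match to TGACG or to the NF-kB consensus. HLA-B has TGACG (106 to 102), overlapping NF-kB matches (177 to 167) and no exact match to the interferon element core. TAP2 and TAPBP each hold the interferon element core and no CCAAT, and TAPBP also holds an NF-kB match. A match is a string of letters and says nothing about binding in these cells. The search misses variant sites, so a window without a match may still hold such an element.

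The libraries held 20000665 to 26619099 reads in listed genes, and the first principal component (63.6% of the variance) set both MS177 libraries apart from the other 6. All 9 plasma cell markers looked up were expressed in every library. Their summed level was 194902 to 194941 normalized reads in DMSO and 121980 to 124144 with MS177. By the test described below, 7 of them fell and 1 rose with MS177, where 57.9% of all genes tested were called (28.9% higher and 29% lower). Of the markers of other cell types, 0 of 3 for B cells, 2 of 6 for T and NK cells, 3 of 5 for myeloid cells and 5 of 5 for stromal and epithelial cells were listed. Their sums were 75.9 to 108 normalized reads in DMSO and 35.5 to 43.9 with MS177 for T and NK cells, 22.0 to 24.0 and 70.7 to 87.0 for myeloid cells, and 20.9 to 42.3 and 48.6 to 66.4 for stromal and epithelial cells. COL3A1 was at 0 in all 4 libraries of these groups, COL1A2 was at 0 in both DMSO libraries, and the myeloid rise was mostly in ITGAM. The part of these shifts in the results below was not tested. In bulk RNA, a change in the share of cells that carry a transcript and a change in RNA per cell cannot be told apart.

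With MS177, HLA-F rose 2.26-fold while the other class I genes moved by little or not at all. HLA-B and TAPBP were higher by 1.14-fold and 1.13-fold, TAP2 was lower by 1.22-fold, and HLA-C, HLA-E, B2M, TAP1 and NLRC5 were not called. That is 4 of 9 genes called, 3 higher and 1 lower, where 57.9% of all genes tested were called (28.9% higher and 29% lower), so these genes were not called more often than the rest. The median log2 fold change of the 9 genes was 0.11, beside 0.00 for all genes tested. Against DMSO, limma gave 0 calls among the 9 genes for either of the other compounds. Of all genes tested, it called 0.0353% with MS177N1 and 0.0918% with C24. Values below are normalized reads (reads divided by the library's size factor), changes are log2 fold changes from limma with their standard error (SE), and a gene is called at a Benjamini-Hochberg adjusted p under 0.05 over all genes tested.

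**Figure D1:**
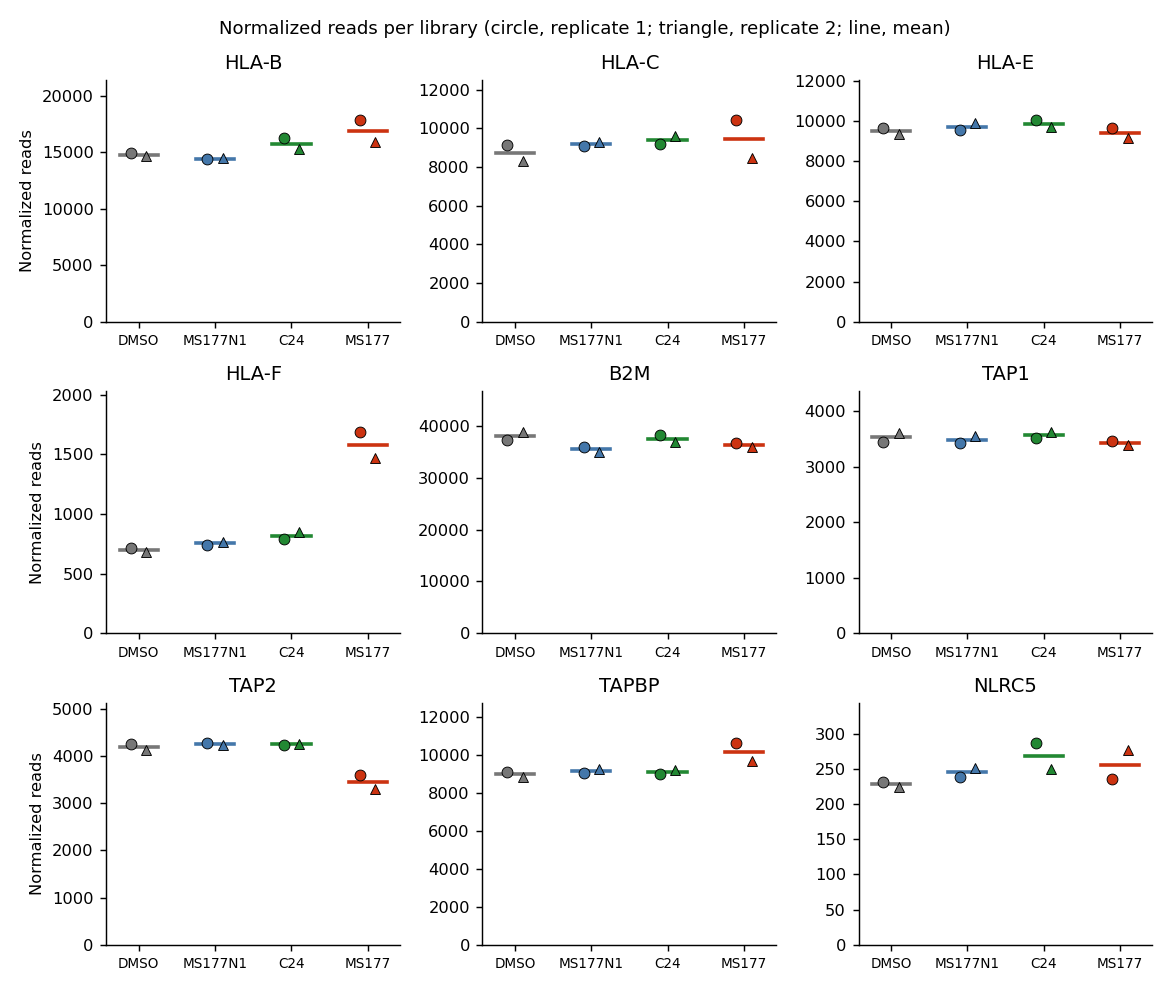
Normalized reads (y axis, from 0) of each of the 9 genes in each library by group (x axis), with circles for replicate 1, triangles for replicate 2 and a line at the mean of 2. HLA-F in MS177 stands at 1691 and 1474, above all 6 other libraries, which lie between 685 and 845 normalized reads.

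NLRC5, the transactivator, had the lowest level of the 9 and did not change detectably. It stood at 232 and 224 normalized reads in DMSO, 236 and 277 with MS177, 239 and 252 with MS177N1, and 287 and 250 with C24. The libraries with MS177 lay above both DMSO libraries but overlapped those of the other 2 compounds. The log2 fold change of MS177 against DMSO was 0.16 (SE 0.13, adjusted p = 0.301), with a 95% interval of the fold from 0.924 to 1.36. A rise of NLRC5 by more than 1.36-fold with MS177 is thus outside the interval.

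The classical heavy chain genes HLA-B and HLA-C were abundant in all groups. HLA-B stood at 14972 and 14631 normalized reads in DMSO, 17854 and 15868 with MS177, 14365 and 14521 with MS177N1, and 16239 and 15249 with C24. Both MS177 libraries lay above both DMSO libraries, but the lower one lay below the higher C24 library. The change against DMSO was 0.19 (SE 0.05, adjusted p = 0.00596), and without MS177 replicate 1 it was 0.10 (adjusted p = 0.0642; range over the alternatives tried 1.23e-07 to 0.0902, the highest with no trend and no robust prior). HLA-C stood at 9166 and 8329 in DMSO, 10433 and 8482 with MS177, 9099 and 9307 with MS177N1, and 9191 and 9631 with C24. Its MS177 libraries enclosed or overlapped those of every other group (0.11, SE 0.09, adjusted p = 0.334). The call of HLA-C depended on 1 library: without MS177 replicate 2 the change was 0.26 (adjusted p = 0.000368), and without MS177 replicate 1 it was -0.04. With a smooth dependence on transcript length and GC content taken out, HLA-C was also called, at 0.23 (adjusted p = 4.13e-05; range over the alternatives 4.13e-05 to 0.781).

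Of the nonclassical genes, HLA-F rose with MS177 and HLA-E was not called. HLA-F stood at 712 and 685 normalized reads under DMSO and reached 1691 and 1474 under MS177. It stood at 741 and 767 with MS177N1 and at 787 and 845 with C24. The MS177 libraries did not overlap those of any other group, and the change against DMSO was 1.18 (SE 0.08, adjusted p = 6.68e-09), between 1.06 and 1.28 under every alternative tried. For HLA-E, DMSO gave 9667 and 9350 normalized reads, against 9649 and 9159 with MS177, 9547 and 9889 with MS177N1, and 10049 and 9695 with C24, and the MS177 libraries overlapped those of DMSO and MS177N1. Its change was -0.02 (SE 0.05, adjusted p = 0.780), with a 95% interval of the fold from 0.925 to 1.06. As a share of the summed normalized reads of the 4 heavy chain genes, HLA-F made up 2.06% and 2.07% in DMSO, 4.27% and 4.21% with MS177, 2.19% and 2.22% with MS177N1, and 2.17% and 2.39% with C24. HLA-E made up 28.0% and 28.3% of that sum in DMSO and 24.3% and 26.2% with MS177.

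The light chain gene B2M was the most abundant of the 9. Its normalized reads were 37386 and 38963 in DMSO, 36717 and 36000 with MS177, 36078 and 35087 with MS177N1, and 38271 and 36964 with C24. Both MS177 libraries lay below both DMSO libraries by a small margin (-0.07, SE 0.04, adjusted p = 0.119; 95% interval of the fold from 0.902 to 1.01). Scaling by total reads turned this uncalled value to 0.01, and likewise HLA-E to 0.07 and TAP1 to 0.05. Among the 9 genes B2M had the only change with MS177N1 at an unadjusted p under 0.05 (-0.10, SE 0.04, adjusted p = 0.965 by limma).

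Of the subunits of the peptide transporter, TAP2 fell and TAP1 did not change detectably. TAP2 counted 4253 and 4132 normalized reads under DMSO, against 3593 and 3297 under MS177. The MS177N1 libraries stood at 4270 and 4231 and the C24 libraries at 4239 and 4246. All 6 libraries without MS177 thus lay within a narrow band above both MS177 libraries, and the change against DMSO was -0.28 (SE 0.05, adjusted p = 0.000216), called under all 20 alternatives tried. TAP1, which pairs with TAP2 in the transporter, had 3446 and 3605 in DMSO, 3466 and 3396 with MS177, 3420 and 3548 with MS177N1, and 3505 and 3628 with C24. The MS177 libraries overlapped those of DMSO and MS177N1 (-0.04, SE 0.05, adjusted p = 0.536; 95% interval of the fold from 0.903 to 1.05). TAPBP, encoding tapasin, which bridges the transporter to the heavy chain, had 9138 and 8854 in DMSO, 10635 and 9694 with MS177, 9058 and 9287 with MS177N1, and 9005 and 9243 with C24. Its 2 MS177 libraries lay above all 6 others (0.17, SE 0.05, adjusted p = 0.00596), but the call was lost without MS177 replicate 1 (0.11, adjusted p = 0.0542) and without DMSO replicate 2 (0.15, adjusted p = 0.0521), over a range of 0.000142 to 0.0706 for all alternatives, the highest with no trend and no robust prior.

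**Figure D2:**
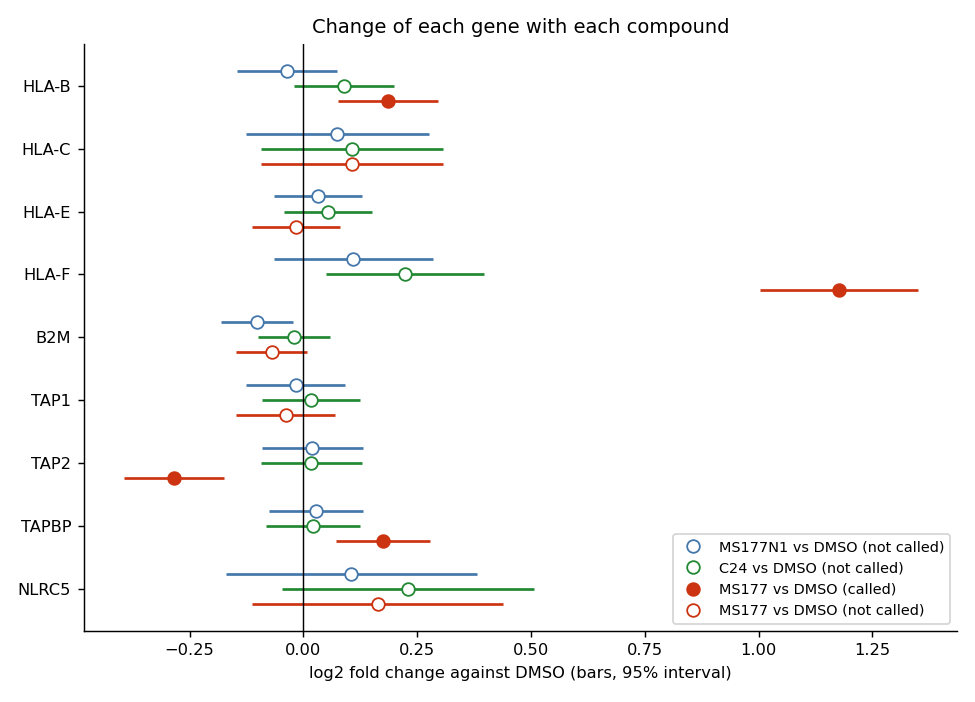
log2 fold change against DMSO (x axis) of each gene (y axis) with MS177N1, C24 and MS177, with the 95% interval as bars and filled points for called changes. HLA-F with MS177 stands apart at 1.18, TAP2 at -0.28, and the intervals of both other compounds are all uncalled.

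The 3 compounds were compared directly at the same dose and time; these comparisons share libraries with those against DMSO and are not independent of them. HLA-F was higher with MS177 than with MS177N1 by 1.07 (SE 0.08, adjusted p = 2.06e-08) and than with C24 by 0.95 (SE 0.08, adjusted p = 7.05e-08). TAP2 was lower with MS177 than with MS177N1 by a log2 change of -0.30 (SE 0.05, adjusted p = 0.000117) and than with C24 by -0.30 (SE 0.05, adjusted p = 0.000124). TAPBP was higher with MS177 than with MS177N1 (0.15, SE 0.05, adjusted p = 0.0174) and than with C24 (0.15, SE 0.05, adjusted p = 0.0128), and both calls were lost without MS177 replicate 1 (0.08 and 0.09). The first was also lost without either MS177N1 library, and the second without C24 replicate 1. HLA-B differed between MS177 and MS177N1 (0.22, SE 0.05, adjusted p = 0.00176) and was not called between MS177 and C24 (0.10, SE 0.05, adjusted p = 0.121; 95% interval of the log2 change from -0.01 to 0.21), though it was called there without MS177 replicate 2 (0.18) and with total-read scaling (0.18). MS177 thus differed from MS177N1 in 4 of the 9 genes, 3 higher and 1 lower, where 57.4% of all genes tested were called (28.8% higher and 28.6% lower). It differed from C24 in 3, 2 higher and 1 lower, where 58.1% were called (29.1% higher and 29% lower). Against C24, 7 of 9 genes were called with the length and GC trend taken out. The share of all genes called under that setting is not given here, so nothing is read from this count. The uncalled differences from MS177N1 had adjusted p from 0.388 to 0.781 and 95% intervals of the fold within 0.859 to 1.26, and those from C24 had adjusted p from 0.121 to 0.999 and intervals within 0.788 to 1.16. NLRC5 was among them, at 0.06 against MS177N1 and -0.07 against C24.

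No change of the 9 genes passed the test with C24 or with MS177N1. Against DMSO, limma called 0 of 9 with C24 and 0 of 9 with MS177N1, where 0.0918% (0.0212% higher and 0.0706% lower) and 0.0353% of all genes tested were called. C24 against MS177N1 gave 0 of 9, where 0.0141% of all genes were called. At an unadjusted p under 0.05 there was 1 gene in each comparison with DMSO and 2 (HLA-B and B2M) between the compounds. Over all 14164 genes tested, 762 were at such a p with C24, 718 with MS177N1 and 634 between the compounds, so nothing is read from the counts among the 9. With C24 that gene was HLA-F, at 787 and 845 normalized reads against 712 and 685 (0.22, SE 0.08, adjusted p = 0.897 by limma). Its libraries did not overlap, and the 95% interval of the fold ran from 1.04 to 1.32, beside 2.26-fold with MS177. Over the 9 genes, the widest bounds of the 95% intervals ran from 0.933-fold to 1.42-fold with C24 and from 0.883-fold to 1.30-fold with MS177N1, the upper ones being those of NLRC5. The limma test thus does not show that these compounds leave class I genes untouched, only that changes beyond these bounds lie outside the intervals.

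To order the genes by level, normalized reads were divided by the length of the longest GENCODE transcript in kilobases. In DMSO, B2M stood at 22390 ± 654 (SD, n = 2) normalized reads per kilobase, HLA-B at 9568 ± 156, HLA-C at 5629 ± 381, HLA-E at 3656 ± 86.0, TAPBP at 2393 ± 53.4, TAP1 at 1191 ± 38.0, TAP2 at 738 ± 15.03, HLA-F at 427 ± 11.9 and NLRC5 at 33.4 ± 0.853. No 2 neighbours in that order overlapped between their libraries, in any of the 4 groups. The order was the same with MS177N1 and C24. With MS177, HLA-F (968 ± 93.9) and TAP2 (606 ± 36.9) changed places, and HLA-F came to lie below TAP1 (1159 ± 16.7). The lengths assume the longest transcript, and shorter isoforms would raise a gene's value.

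**Figure D3:**
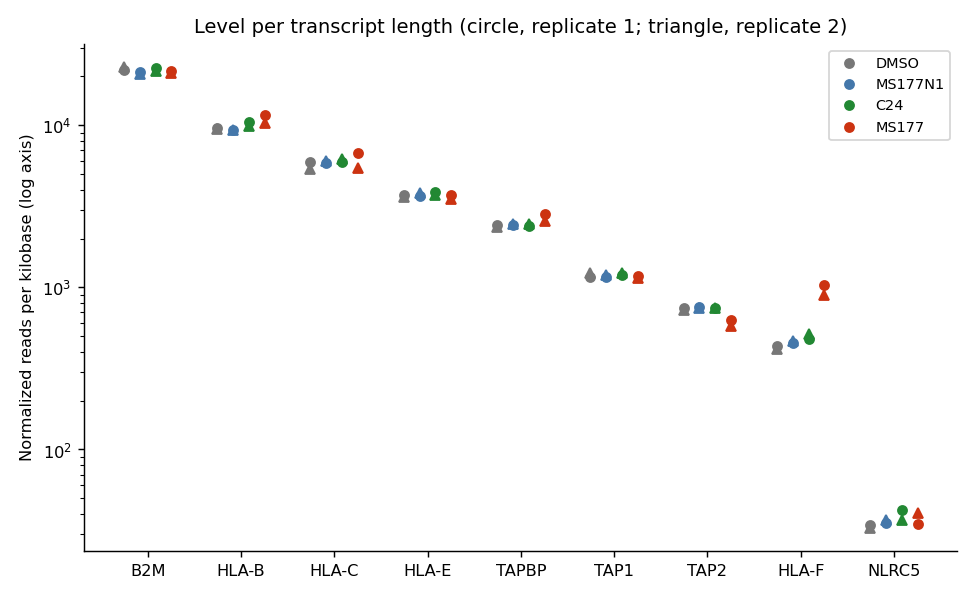
Normalized reads per kilobase (y axis, log scale) of the 9 genes (x axis, ordered by their DMSO level) in each library, coloured by group. The 4 groups lie on top of each other for most genes, and HLA-F moves from 427 in DMSO to 968 with MS177, past TAP2.

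The spread between libraries was not the same for all class I genes. HLA-H, a heavy chain pseudogene singled out after its values were seen, stood at 472 and 290 normalized reads under DMSO, 553 and 341 under MS177, 366 and 497 under MS177N1, and 431 and 613 under C24. Replicate 1 was the higher in DMSO and MS177 and the lower in MS177N1 and C24. The log2 differences of replicate 1 minus replicate 2 were 0.70 for DMSO, 0.69 for MS177, -0.44 for MS177N1 and -0.51 for C24, or 4.46 to 7.04 times the counting error (SD) of the difference. These exceeded the difference between replicates of 98.8% to 99.5% of genes with a mean of at least 100 normalized reads. HLA-C, HLA-F and TAPBP had the signs of HLA-H in 4 of 4 groups, HLA-B, HLA-E, TAP1 and TAP2 in 3 of 4, NLRC5 in 2 of 4 and B2M in 1 of 4. The share of all genes with these signs was not computed. In MS177, replicate 1 exceeded replicate 2 by 0.30 for HLA-C, 0.17 for HLA-B, 0.20 for HLA-F, 0.13 for TAPBP, 0.12 for TAP2, 0.08 for HLA-E, 0.03 for TAP1 and 0.03 for B2M, in log2 units, and NLRC5 went the other way (-0.23). HLA-H itself was not called with MS177 against DMSO (0.23, SE 0.39, adjusted p = 0.658).

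**Figure D4:**
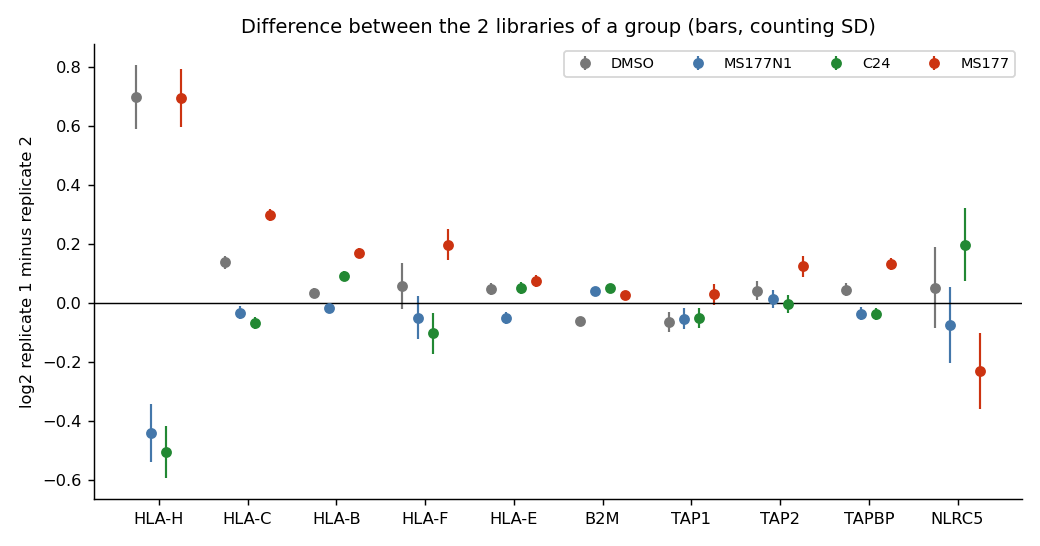
log2 difference between replicate 1 and replicate 2 (y axis) of each gene (x axis) within each group, with bars of 1 counting SD. HLA-H is positive in DMSO and MS177 and negative in MS177N1 and C24, and reaches 0.70.

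Heavy chain genes resemble each other, so their reads are uncertain where the counting could split them between genes. In the GENCODE transcripts, 15.6% of the 31-base words of HLA-B, 20.1% of those of HLA-C, 11.5% of HLA-E and 7.85% of HLA-F also occur in transcripts of another gene, and 0% of those of B2M and NLRC5. For HLA-F the share is the lowest of the 4 heavy chains. TAP2 shares 36.0% of its words with an annotated readthrough transcript at the same place, and TAPBP shares 12.5%. The antisense gene HLA-F-AS1, an RNA on the other strand, overlaps HLA-F and had at most 3 reads in any library. TAP1 overlaps PSMB9 and PSMB8-AS1 in the annotation, both on the other strand, with 1622 to 2048 and 172 to 297 reads per library. Whether the counting used strand is not given in the sources used here, so the reads of TAP1 and of these genes are uncertain. HLA-B overlaps HLA-C in the annotation on the same strand, where strand cannot separate them, and the listed pseudogene RPL3P2 on the other strand. HLA alleles of MM1.S can also differ from the reference, which was not tested.

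Around these 9 genes, the wider pathway moved in both directions with MS177. A set of 8 lists with 74 other genes (66 listed, 62 tested) gave 44 calls (26 higher and 18 lower), or 71.0% of those tested beside 57.9% of all genes. Among the higher ones, HFE, SOCS3, NECTIN2 and ULBP1 passed the read filter only through their MS177 libraries. The lists were also chosen with earlier results of these data known, so nothing is read from the larger share called. Interferon and NF-kB inputs were mostly higher, proteasome genes mostly lower, and loading genes were split. Neither MS177N1 nor C24 gave any call in these lists against DMSO, where 0.0353% and 0.0918% of all genes tested were called.

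Most genes listed as interferon and NF-kB inputs to class I transcription were higher. The list holds both activators and inhibitors. Of 18 genes of interferon and NF-kB signalling, 14 rose, 1 fell and 3 were not called (median log2 fold change 0.45). Of all genes tested, 57.9% were called (28.9% higher and 29% lower). SOCS3, counted among the 14, passed the read filter only through its MS177 libraries. STAT2, a transcription factor of the interferon response, rose 2.72-fold, from 1647 and 1649 to 4521 and 4441 normalized reads. IRF8, an interferon regulatory factor of blood cells, rose from 204 and 196 to 557 and 505 (1.40, SE 0.13, adjusted p = 2.53e-07). IRF1, a direct activator of class I promoters named here after its values were seen, rose 2.34-fold, from 2014 and 1984 to 4806 and 4552. SOCS3, a feedback inhibitor of cytokine signalling, rose from 0 and 7.69 to 40.7 and 27.1, and lost its call without DMSO replicate 1 (adjusted p = 0.0972) and also with no trend and no robust prior.

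Of 9 genes for the factors of the S-X-Y module and their class II partner, 3 rose, 1 fell and 5 were not called (median 0.16), a smaller share called than the 57.9% of all genes tested. CIITA, the class II counterpart of NLRC5, rose 2.02-fold, from 543 and 570 normalized reads to 1111 and 1135. Within the RFX complex, RFXANK rose from 1446 and 1564 to 2602 and 2400 (0.73, SE 0.07, adjusted p = 2.40e-07), while RFX5 fell from 3259 and 3482 to 2578 and 2664 (-0.36, SE 0.05, adjusted p = 2.18e-05). CREB1, a factor of the X2 box, rose by 0.55 (SE 0.08, adjusted p = 1.51e-05). The 3 NF-Y subunits were not called, between -0.05 and 0.17.

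Proteasome genes were lower in most cases. Of 6 immunoproteasome and activator genes, 4 fell and 0 rose (median -0.38), where 57.9% of all genes tested were called (28.9% higher and 29% lower). PSME2, a subunit of the PA28 activator, fell from 3018 and 2638 to 1961 and 1763 normalized reads (-0.60, SE 0.07, adjusted p = 3.22e-06). PSME3, its nuclear relative, fell by 0.46 (SE 0.04), and PSMB8, a catalytic subunit of the immunoproteasome, fell from 2052 and 1905 to 1599 and 1391. PSMB9, which is divergently arranged with TAP1 and was named after its values were seen, had 1817 and 1702 in DMSO and 1811 and 1647 with MS177 (-0.03, SE 0.07, adjusted p = 0.765), but was higher by 0.19 with the length and GC trend taken out. The constitutive catalytic subunits PSMB5, PSMB6 and PSMB7 all fell, by 0.73, 0.40 and 0.30; PSMB7 lost its call with the length and GC trend taken out (-0.09).

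Loading and trimming genes were split. Of 12 genes, 4 rose, 6 fell and 2 were not called (median -0.19), where 57.9% of all genes tested were called. TAPBPL, a tapasin relative that edits peptides (TAPBPR), fell from 966 and 835 normalized reads to 540 and 436 (-0.89, SE 0.10, adjusted p = 2.40e-06), opposite in direction to TAPBP. The loading chaperone CALR fell from 41927 and 39028 to 29367 and 28220, and UGGT1, the glucosyltransferase that returns unfolded glycoproteins to it, fell from 4257 and 5090 to 2931 and 3542. The peptidases TPP2, LNPEP and NPEPPS, which trim or destroy peptides, rose by 0.44 (SE 0.06), 0.37 (SE 0.08) and 0.35 (SE 0.06).

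Of the class I-like molecules and ligands of NK cells, 5 of 10 tested genes were called, where 57.9% of all genes tested were. Of 5 tested heavy chain relatives, 2 rose, 0 fell and 3 were not called. MR1, which presents microbial metabolites, rose 1.42-fold, from 1149 and 1133 to 1649 and 1585 normalized reads. HFE, an iron regulator with a class I fold, went from 2.20 and 15.4 to 40.7 and 31.8 and lost its call without DMSO replicate 1. Of 5 tested NK ligands, 2 rose, 1 fell and 2 were not called. NECTIN2, a ligand of DNAM-1, rose from 5.50 and 1.92 to 67.5 and 58.0, and ULBP1, a ligand of NKG2D, from 7.70 and 5.77 to 30.0 and 47.7, both from few reads. HFE, NECTIN2 and ULBP1 passed the read filter only through their MS177 libraries. A rise with MS177 was thus favoured in advance, and nothing is read from the counts of these 2 lists. MICB, another ligand of NKG2D, fell from 1392 and 1233 to 919 and 901 (-0.53, SE 0.07, adjusted p = 1.11e-05).

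Of the PRC2 list, EED and SUZ12 fell by 0.57 (SE 0.08) and 0.39 (SE 0.05), and EZH1 rose by 0.83 (SE 0.09). EZH2 was not called at the RNA level (0.09, SE 0.05, adjusted p = 0.155). A degrader acts on the protein, so this RNA does not check the labels.

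**Figure D5:**
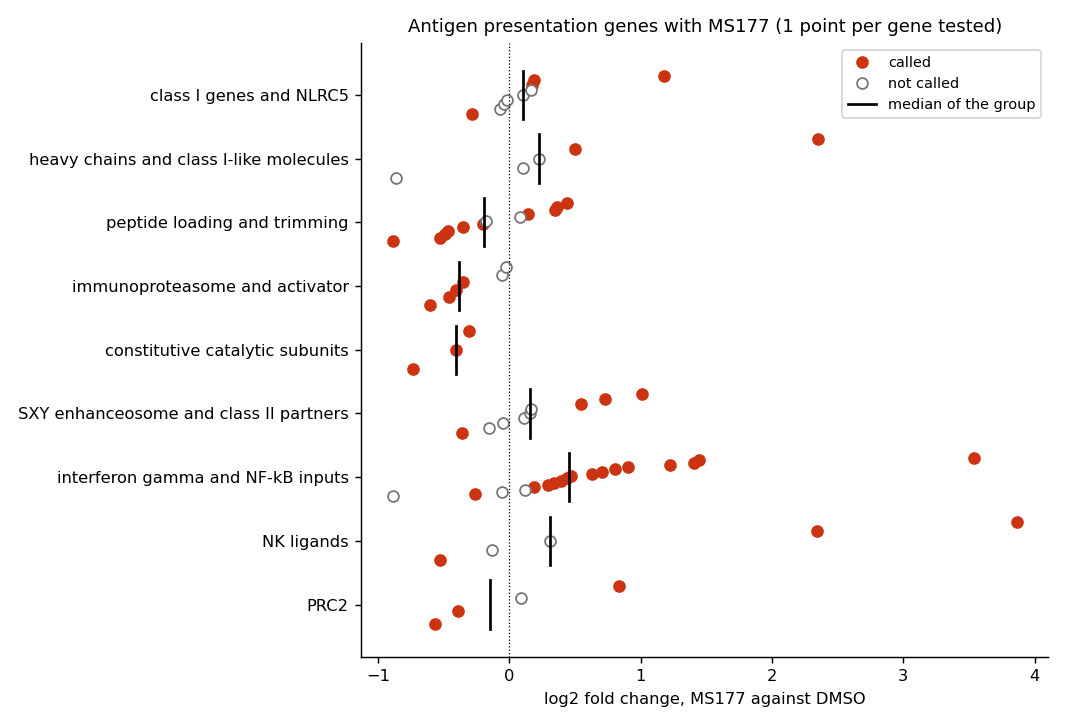
log2 fold change of MS177 against DMSO (x axis) of each tested gene, grouped by list (y axis), with filled points for called genes and a black bar at the median of each group. The median is highest for interferon and NF-kB inputs (0.45) and lowest for the constitutive catalytic subunits (-0.40), with the class I genes and NLRC5 at 0.11.

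By the distance between profiles over the 8 libraries, among 10242 other genes with a mean of at least 100 normalized reads, the genes most like HLA-F were CD86, a costimulatory ligand for T cells, HLA-DRA, the class II alpha chain, and VEGFA, a vascular growth factor. Their changes with MS177 against DMSO were 1.23, 1.21 and 1.06 in log2 units, beside 1.18 for HLA-F, and their distances to HLA-F were 0.16, 0.17 and 0.18. With C24 the same 3 genes stood at 0.16, 0.15 and 0.09, where HLA-F stood at 0.22. The genes most like TAP2 were AP2M1, PRDX3 and PIM2, with changes of -0.27, -0.32 and -0.29. The genes most like TAPBP were TMEM184B, CHST11 and ACTN4, and those most like HLA-B were SAP30BP, GABARAP and TMEM101. The genes most like HLA-C were RNASEK, CYBA and FAAH. For NLRC5 they were TGFBR1, TAF1C, PGPEP1 and TRAIP, and for HLA-E PDAP1, BCL2L1 and RTCB. For B2M they were RPL15, ZNF746 and SMAP2, and for TAP1 NGLY1, C22orf34 and UBE2R2. The length of the profile was 1.33 for HLA-F and between 0.09 (TAP1) and 0.38 (TAP2) for the other 8 genes. All profiles share the same 8 libraries, and no p is given. The neighbours were picked for nearness over these libraries, so their similar changes follow from the choice.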

How the data were processed

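The 8 RNA-seq libraries come as deposited log2 values of 16295 genes, which the column headers call normalized. The submitters' processing notes name hg19, STAR 2.4.2, Salmon 0.1.19 and DESeq2 1.38.2 without saying what each did. The table has the scale of a variance-stabilizing transformation with a shared lowest value of 5.967655733, which was inverted. All 130360 of 130360 values gave whole reads within 0.01 of a read, and the recovered size factors matched median-of-ratios factors. The test took 14164 genes and left out 2131: a gene needed 10 reads, scaled to the median depth, in 2 or more libraries, and a total of 15. The log2 of normalized reads plus 1 went into 1 limma fit of all 4 groups (limma 3.58.1 with its trend and robust settings, statmod 1.5.0, R 4.3.3), from which 6 pairwise comparisons were taken, with Benjamini-Hochberg adjustment over all genes. The fit was also run on simulated reads with far fewer changed genes than were called here, so that run does not show how it behaves on these data. Depth was 20000665 to 26619099 reads per library in listed genes.

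The members and lists were chosen with earlier results of these data known. Genes named are the 9 members, up to 3 called genes with the largest change in each direction of each list with MS177 against DMSO, and the 3 (for NLRC5, 5) genes of nearest profile; the profile distance is Euclidean over log2 values centred on each gene's mean. Others are marked. Some genes that this rule names are not reported here. Alternatives were 2 other scalings, the deposited values, voom weights, 2 filters, 2 pseudocounts (0.5 and 5), no trend and no robust prior, only the groups compared, a replicate block, removal of a length and GC trend, and leaving out each library. Transcript lengths and GC content came from GENCODE release 29, which matched 85.4% of names. That release and the promoters from RefSeq use build GRCh38, not the build of the files. JCHAIN and NECTIN2 are listed under the older symbols IGJ and PVRL2.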

Additional observations from a re-analysis of the deposited data

How the results depend on the processing

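Of 1080 values of the 9 genes over 6 comparisons and 20 alternatives, 1053 kept their side of the threshold (with their direction, where called), 13 lost a call, 12 gained one and 2 turned sign with a call. HLA-F and TAP2 were called with MS177 in all 3 comparisons under each of the 20 alternatives, and no gene of the 9 was called with C24 or MS177N1 against DMSO or between these compounds under any. The sign changes with a call were those of HLA-C in MS177 against C24, 0.12 with the length and GC trend taken out and 0.15 without MS177 replicate 2, from -0.00 as reported, against -0.15 without MS177 replicate 1; the cause was not tested. PSMB9, uncalled at -0.03, was called at 0.19 with the length and GC trend taken out. Without a trend and a robust prior, calls among the 9 genes went from 4 to 2 for MS177 against DMSO and from 4 to 2 against MS177N1. With the length and GC trend taken out, 7 were called in MS177 against C24, in place of 3. For the comparisons of MS177, the shares of all genes called under the alternatives are not given here. Nothing is thus read from such counts among the 9 genes. Leaving out 1 library at a time gave 2 to 5 called genes of the 9 in MS177 against DMSO, 3 to 5 against MS177N1 and 2 to 5 against C24. Of 29 list genes named as called with MS177, 26 were called under every alternative that tested them.

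The small counts over all genes moved more. For MS177N1 against DMSO, 5 genes as reported became 3 with total-read scaling, 8 with upper-quartile scaling, 8 with the deposited values, 8 with voom weights, 9 with a pseudocount of 5, 0 without a trend and a robust prior, 17 with only those groups in the fit and 2 with the length and GC trend taken out; it was 0 to 19 with 1 library left out. For C24 against DMSO, 13 became 1 without a trend and a robust prior, and 10 to 28 with 1 library left out. For C24 against MS177N1, 2 became 1 with a mean of at least 100 reads, 1 with a pseudocount of 5, 28 with only those groups in the fit and 5 with the length and GC trend taken out, and 0 to 13 with 1 library left out. With the replicate number as a block, 11 genes were called in MS177N1 against DMSO and 20 in C24 against DMSO. The block changed no call of the 9 genes. Over all genes tested, deviations of same-numbered libraries correlated at -0.06 to 0.06. A shared batch that affects some genes only, or that does not follow the replicate number, was not tested. Where a comparison group was left with 1 library, that library is assumed to vary like the others. Of the 9 genes NLRC5 had the fewest reads and the largest standard error (0.13).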
